A study of Homo sapiens with 2 samples.

Results

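The axon guidance ligands and receptors form 4 signalling systems that steer growing axons and also shape vessels, kidney and other epithelia: netrins with UNC5 receptors, Slits with Robo receptors, ephrins with Eph receptors, and semaphorins with plexins. The genes described here were all protein-coding genes of chromosomes 1 to 22 whose symbol belongs to the EPHA, EPHB, EFNA, EFNB, SLIT, ROBO, NTN, PLXN, UNC5 or SEMA families. The rule used names only and no measured value. It gave 63 of 19229 protein-coding genes, 34 for ligands and 29 for receptors. UNC5CL entered by its name, although it encodes an intracellular death-domain protein and not a guidance receptor.

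Open chromatin was mapped by ATAC-seq, which sequences the ends that the transposase Tn5 cuts in accessible DNA. The cells were G401, an established line of SMARCB1-deficient malignant rhabdoid tumour of the kidney, and the same line was used throughout. The control culture received DMSO, the solvent, for 3 days, and the other received the inhibitor MAK683 at 3 μM for 3 days. MAK683 is an allosteric inhibitor that occupies EED, a subunit of PRC2, and so prevents this Polycomb complex from methylating histone H3 at lysine 27. Each treatment had 1 library, so differences between the libraries were described without p-values. The DMSO library held 16598348 tags after filtering and the MAK683 library 18265284. Over the whole genome 114506 peaks were called in DMSO and 161684 in MAK683, with median heights of 11 and 10 tags. The part that this difference between the libraries has in the counts, lengths and heights of peaks below was not tested. SMARCB1, the gene whose loss defines the line, had no called peak at its promoter or inside the gene in either library. The mesenchymal genes VIM and LGALS1 had promoter peaks of 44 and 24 tags in DMSO and 41 and 20 in MAK683. The epithelial genes EPCAM and CDH1 had 12 and 18 tags in DMSO and 11 and 17 in MAK683, and the leukocyte genes PTPRC and CD3E had no promoter peak.

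PRC2 keeps many developmental genes silent in cells of other lineages. A guidance cue is secreted or held on a membrane, and its receptor on the growing cell turns the contact into local changes of the actin skeleton. In the kidney, SLIT2 acting through ROBO2 limits where the ureteric bud grows out. The comparison asks whether the promoters of these genes were more or less open after MAK683, and how that compares with other genes.

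Promoter peaks of the guidance genes were lower in the MAK683 library by less, at the median, than those of other genes. More guidance genes had a promoter peak than in DMSO, and the same held for all protein-coding genes. A promoter peak, meaning a peak that reaches within 3 kb of the start of transcription (TSS), was called at 56 of the 63 genes in DMSO and at 60 in MAK683, 88.9% and 95.2% against 74.0% and 80.1% of all protein-coding genes. ROBO1, SEMA3A, SEMA6D, NTN1, EPHA8 and UNC5C had a promoter peak in MAK683 only. NTN5 and SEMA6B had one in DMSO only, UNC5D had none in either library, and 54 genes had one in both. The MAK683-only genes were 9.52% of the set, close to the 7.92% of all protein-coding genes in that state. The DMSO-only genes were 3.17%, against 1.86%. Height is given as tags at the summit of the tallest promoter peak per 1000000 tags after filtering (RPM), where 1 tag is worth 0.0602 RPM in DMSO and 0.0547 in MAK683. The lowest called peak held 6 tags in both libraries, so a gene without a peak may still have had some signal.

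Across the 54 genes with a peak in both libraries the log2 ratio of heights (MAK683 over DMSO) had a median of -0.14, a ratio of 0.909. The order-statistic interval, a spread over genes, was -0.34 to 0.16. All 13870 protein-coding genes with both peaks had a median of -0.46, a ratio of 0.727. With 1 library per treatment, this general fall cannot be assigned to MAK683 or to a difference between the libraries. The paper itself reported no significant change of chromatin opening around the TSS in G401 cells. MAK683 was higher at 22 guidance genes and lower at 32, so 40.7% were higher against 13.4% of all genes. Without scaling for depth the split was 26 higher and 23 lower, and relative to the median of all genes 40 were higher and 14 lower. Only PLXNA4 was at least 2-fold higher among the 54, a state that 1.13% of all genes had. None was at least 2-fold lower, a state that 5.86% of all genes had. No single guidance gene had a counting interval above 0, as 0.836% of all genes did, and 3 had one below 0 (EFNA3, SEMA4C and SEMA6C), as 17.2% of all genes did. The interval lay wholly above the median of all genes at 8 of the 54, 14.8% against 3.88%. These were EPHA7, EPHB1, EPHB6, PLXNA4, ROBO4, SEMA3D, SEMA5A and SLIT2, and none lay wholly below it. The tallest peaks of the libraries had summits at most 500 bp apart at 40 of the 54 genes, which had a median log2 ratio of -0.02 with 18 higher. At the others, among them EFNA1, NTN3, PLXNA4, SEMA4C and SLIT1, the ratio compares peaks farther apart. The plot of heights by gene shows each value with its interval.

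**Figure D1:**
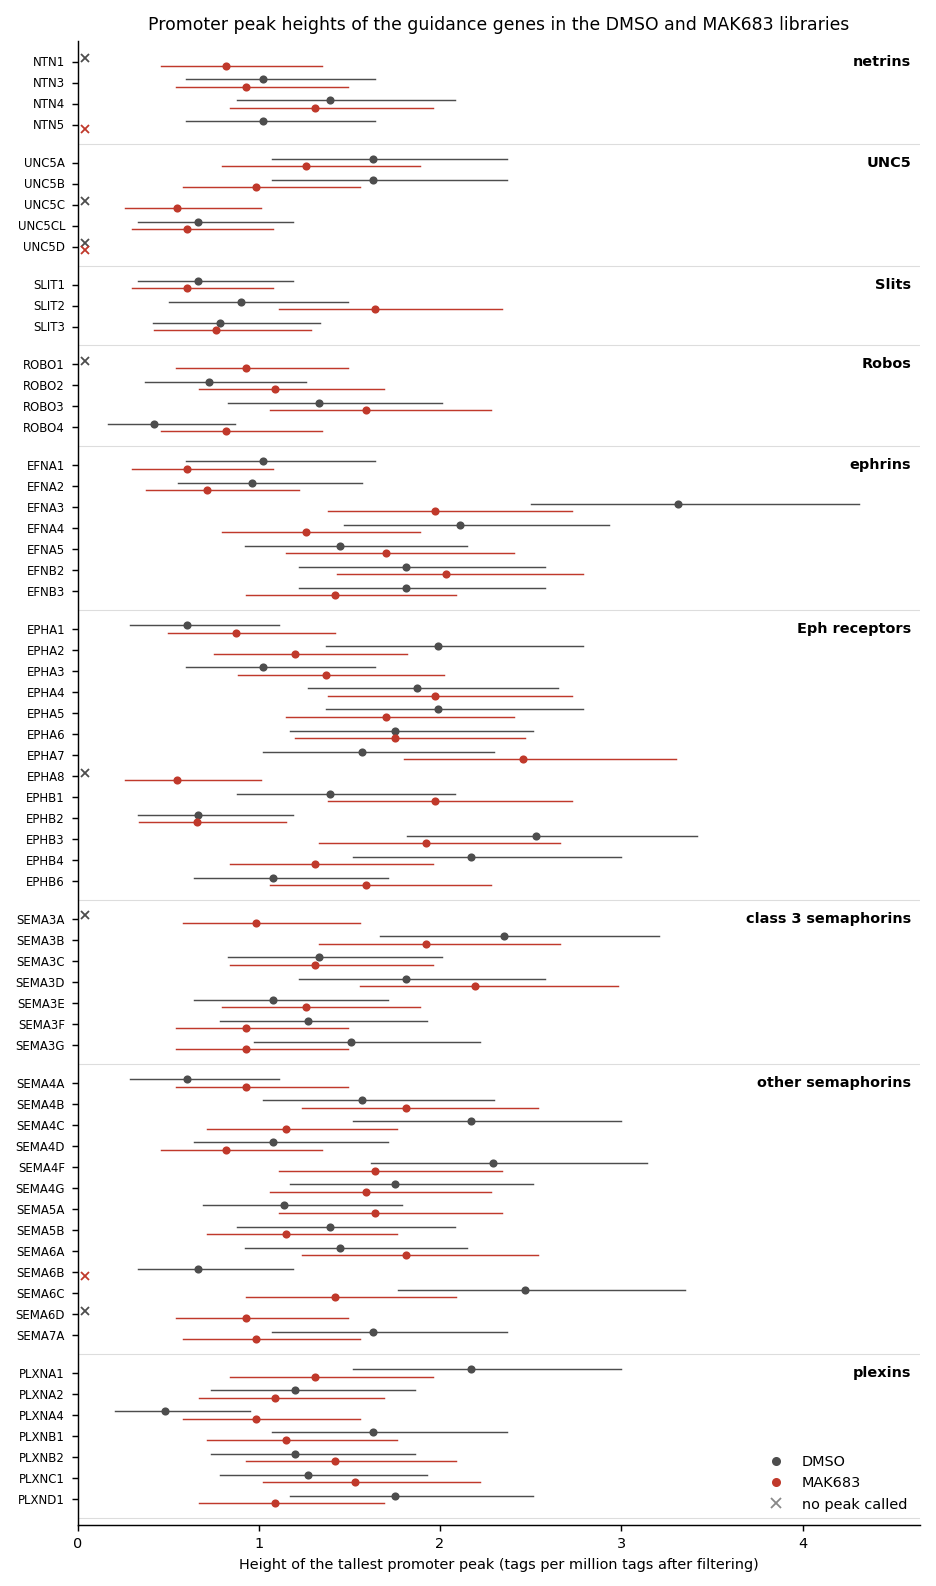
Height of the tallest promoter peak of each of the 63 guidance genes, in RPM, for the DMSO library (grey) and the MAK683 library (red), with 1 library each. Bars are exact 95% counting intervals and crosses mark a library without a called peak. Most pairs of bars overlap, EFNA3 in DMSO is the tallest at 3.31, and 6 genes have a MAK683 point only.

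**Figure D2:**
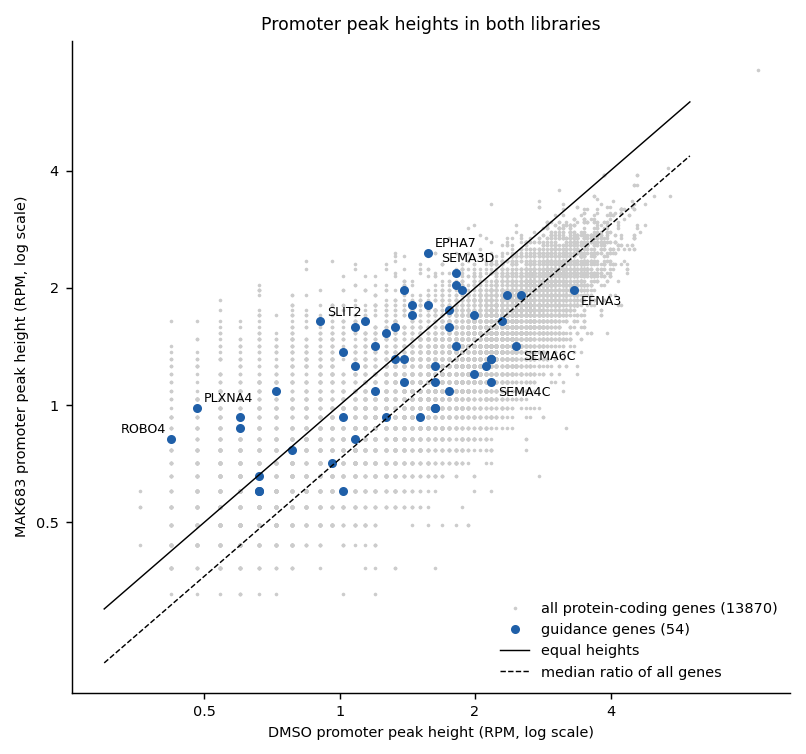
Promoter peak height in DMSO (x axis) and MAK683 (y axis), in RPM on log scales, for all 13870 protein-coding genes with a peak in both libraries (grey) and the 54 guidance genes among them (blue). The solid line marks equal heights and the dashed line the median ratio of all genes; 40 of the 54 guidance genes lie above the dashed line.

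Ligand and receptor genes were then taken apart. The median log2 ratio was -0.14 over 29 ligand genes, with 9 higher and 20 lower, and 0.00 over 25 receptor genes, with 13 higher and 12 lower. By family, the Robos had the highest median at 0.60 over 3 genes and the ephrins the lowest at -0.44 over 7. With so few genes per family these medians are a description of the libraries.

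Netrins are secreted, laminin-related cues that attract or repel axons, and UNC5 receptors mediate the repulsion. NTN1, the founding guidance netrin, had no DMSO promoter peak and a MAK683 peak of 15 tags, or 0.821 RPM (0.460 to 1.35), which was short at 232 bp and had its summit in an intron 288 bp downstream of the TSS. NTN4 had 23 tags in DMSO and 24 in MAK683, a log2 ratio of -0.08 (-0.96 to 0.81), and NTN3 had 17 in both, a ratio of -0.14. The NTN3 peaks were different sites, with the DMSO summit 2235 bp downstream of the TSS, nearest to the TSS of the neighbouring gene TBC1D24, and the MAK683 summit 627 bp upstream. NTN5 went the other way, with 17 tags and 1.02 RPM (0.597 to 1.64) in DMSO and no MAK683 peak. Its peak lay 2524 bp upstream of the TSS. Among the receptors, UNC5C had only MAK683 peaks, 4 within the window, of which the tallest held 10 tags or 0.547 RPM (0.263 to 1.01). UNC5B had 27 tags in DMSO and 18 in MAK683 (-0.72, -1.67 to 0.19), UNC5A was also lower with 27 and 23 tags (-0.37), and UNC5CL had 11 in both (-0.14). UNC5D had no called peak at its promoter or inside the gene.

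Slits are large secreted cues, best known for driving axons away from the midline, and Robos are their receptors. SLIT2 had a single promoter peak in DMSO, of 15 tags or 0.904 RPM (0.506 to 1.49). In MAK683 it had 4, of which the tallest held 30 tags, or 1.64 RPM (1.11 to 2.34). The height was 1.82-fold higher, a log2 ratio of 0.86 with an interval of -0.08 to 1.86 that just includes 0, at percentile 98.3 of all genes. SLIT1 had 11 tags in both libraries, but at different sites, with summits 159 bp downstream of the TSS in DMSO and 2174 bp upstream in MAK683. No MAK683 peak was called over the DMSO site. SLIT3 had 13 and 14 tags, a log2 ratio of -0.03 (-1.23 to 1.18). The summed length covered by called peaks within 3 kb of the TSS was larger in MAK683 at all 3 Slit genes, with a median of 653 bp in DMSO and 3522 bp in MAK683.

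At their main TSS, all 4 Robo genes were higher or called only in MAK683. ROBO1 had no DMSO peak within 3 kb of its TSS at position 79817148 of chromosome 3, which starts the long isoforms, and 3 MAK683 peaks there. The tallest held 17 tags, or 0.931 RPM (0.542 to 1.49), with its summit in an untranslated exon 189 bp downstream. A further annotated ROBO1 start 749 kb downstream had 40 tags in DMSO and 43 in MAK683, a log2 ratio of -0.03 (-0.69 to 0.62). The MAK683-only state of ROBO1 was therefore that of the long-isoform start and not of the gene as a whole. ROBO4, the Robo of endothelial cells, had 7 tags in DMSO and 15 in MAK683 (0.96, -0.42 to 2.50), at peaks 3026 and 2800 bp upstream of the TSS. ROBO2 had 12 and 20 tags (0.60, -0.50 to 1.76) and ROBO3 had 22 and 29 (0.26, -0.59 to 1.13). All these intervals include 0. A further ROBO3 peak, 11.0 kb from its main TSS and 959 bp from another annotated start, had 65 tags in DMSO and 53 in MAK683 (-0.43, -0.98 to 0.11).

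The sequences under 3 of the MAK683-only summits are shown because these peaks define the gained state, followed by the 3 promoters with the highest ratios. Each is 150 bases of GRCh37 read 5′ to 3′ on the strand of the gene, the stretch nearest the summit that lies in no annotated untranslated region, and capitals mark CpG dinucleotides. SEMA3A is chr7:83824118-83824267 on the minus strand, ROBO1 is chr3:79816752-79816901 on the minus strand and 58 bp from its summit, and SEMA6D is chr15:48010486-48010635 on the plus strand. PLXNA4 is chr7:132260485-132260634 on the minus strand, ROBO4 is chr11:124770486-124770635 on the minus strand and SLIT2 is chr4:20253375-20253524 on the plus strand.
SEMA3A: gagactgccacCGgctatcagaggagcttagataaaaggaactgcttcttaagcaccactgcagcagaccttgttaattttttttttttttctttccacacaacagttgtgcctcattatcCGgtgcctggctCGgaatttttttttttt
ROBO1: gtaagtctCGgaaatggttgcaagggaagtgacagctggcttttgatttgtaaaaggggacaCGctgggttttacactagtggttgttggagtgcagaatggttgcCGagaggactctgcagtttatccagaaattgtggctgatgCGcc
SEMA6D: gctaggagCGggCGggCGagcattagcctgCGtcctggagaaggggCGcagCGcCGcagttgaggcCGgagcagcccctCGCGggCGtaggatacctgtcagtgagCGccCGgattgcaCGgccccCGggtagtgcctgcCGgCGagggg
PLXNA4: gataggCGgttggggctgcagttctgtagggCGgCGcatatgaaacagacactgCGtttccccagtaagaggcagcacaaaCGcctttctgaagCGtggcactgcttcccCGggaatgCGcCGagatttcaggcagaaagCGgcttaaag
ROBO4: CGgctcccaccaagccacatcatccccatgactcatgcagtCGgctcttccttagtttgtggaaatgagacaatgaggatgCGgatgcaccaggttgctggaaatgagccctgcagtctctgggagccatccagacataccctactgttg
SLIT2: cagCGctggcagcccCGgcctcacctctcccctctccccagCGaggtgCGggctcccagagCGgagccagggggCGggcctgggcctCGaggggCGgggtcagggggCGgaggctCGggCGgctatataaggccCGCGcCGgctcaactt

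These stretches were not alike in base composition. SEMA6D held 17 CpGs in 150 bases at 72.7% GC, and SLIT2 held 14 at 76.0%. SEMA3A, ROBO1 and ROBO4 held 3, 4 and 3 CpGs at 41.3%, 48.7% and 54.0% GC, so the gained or highest peaks lay on CpG-rich and CpG-poor DNA alike.

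Ephrins are short-range ligands, anchored to the membrane by a lipid in the A class and by a transmembrane segment in the B class. EFNA3 had the tallest DMSO peak of all guidance genes within the promoter window, 55 tags and 3.31 RPM (2.50 to 4.31), against 36 tags and 1.97 RPM (1.38 to 2.73) in MAK683. The log2 ratio was -0.75 (-1.40 to -0.12), and the interval excludes 0. The summit lay 6641 bp downstream of the TSS within a peak 5694 bp long that only reaches into the promoter window, so this height describes an intronic site. The peak over the TSS itself held 21 tags in DMSO and 15 in MAK683, a ratio of -0.62 (-1.68 to 0.40) whose interval includes 0. EFNA1 had 17 and 11 tags (-0.77, -2.01 to 0.41), at different sites, since the DMSO summit lay 26 bp downstream of the TSS and the MAK683 summit 2113 bp upstream. Within 1 kb of the TSS it had 17 and 9 tags, a ratio of -1.06. EFNA4 had 35 and 23 (-0.74). EFNA5 and EFNB2 were higher. EFNA5 had 24 tags in DMSO and 31 in MAK683 (0.23, -0.58 to 1.06), and EFNB2, which with EPHB4 marks the border of arteries and veins, had 30 and 37 (0.16, -0.57 to 0.91).

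Eph receptors are the largest family of receptor tyrosine kinases. EPHA7 had 26 tags and 1.57 RPM (1.02 to 2.30) in DMSO and 45 tags and 2.46 RPM (1.80 to 3.30) in MAK683, the tallest MAK683 promoter peak among the guidance genes. The log2 ratio was 0.65 (-0.07 to 1.41), percentile 96.9 among all genes. EPHA8 had no DMSO peak and 3 low MAK683 peaks, of which the tallest held 10 tags, or 0.547 RPM (0.263 to 1.01), 2297 bp upstream of the TSS. At the other end, EPHA2 had 33 and 22 tags (-0.72, -1.57 to 0.10), and EPHB3, the tallest Eph promoter in DMSO, had 42 and 35 (-0.40, -1.09 to 0.28). Of the 12 Eph genes with both peaks 7 were higher and 5 lower, with a median of 0.04. Their intervals all include 0.

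Class 3 semaphorins are secreted and mostly act through neuropilins and A-type plexins. SEMA3A, the best known axon-repelling semaphorin, had no DMSO promoter peak and in MAK683 the tallest of the MAK683-only peaks, 18 tags and 0.985 RPM (0.584 to 1.56). This peak was 2464 bp long and its summit lay 88 bp upstream of the TSS. SEMA3D had 30 tags in DMSO and 40 in MAK683 (0.28, -0.44 to 1.01), and SEMA3G had 25 and 17 (-0.69, -1.68 to 0.25). SEMA3A was the only class 3 gene to change state, and of the other 6 genes 2 were higher and 4 lower, with a median of -0.15.

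Semaphorins of the other classes are mostly bound to the membrane, and they included the lowest ratio of all guidance genes. SEMA4C had 36 tags and 2.17 RPM (1.52 to 3.00) in DMSO and 21 tags and 1.15 RPM (0.712 to 1.76) in MAK683, a log2 ratio of -0.92 (-1.77 to -0.10). SEMA6C had 41 and 26 tags, 2.47 and 1.42 RPM, a ratio of -0.80 (-1.56 to -0.05). Both intervals exclude 0. They include the median of all genes, so a difference from the typical promoter was not detectable at this depth. SEMA6B had 11 tags in DMSO, 0.663 RPM (0.331 to 1.19), and no MAK683 peak at its main TSS, whereas another of its annotated starts had 22 and 17 tags. SEMA6D had no DMSO promoter peak and 5 MAK683 peaks between 2639 bp upstream and 859 bp downstream of the TSS, of which the tallest held 17 tags and 0.931 RPM (0.542 to 1.49). SEMA4A had 10 and 17 tags (0.63, -0.58 to 1.92), the highest ratio of this group. Its summits lay 2969 and 2864 bp upstream of the main TSS, and 597 and 702 bp from another annotated start. The sequences of the lowest promoters, in the same format, are chr1:155100202-155100351 on the plus strand for EFNA1, chr2:97534326-97534475 on the minus strand for SEMA4C and chr1:151119154-151119303 on the minus strand for SEMA6C, at their DMSO peaks.
EFNA1: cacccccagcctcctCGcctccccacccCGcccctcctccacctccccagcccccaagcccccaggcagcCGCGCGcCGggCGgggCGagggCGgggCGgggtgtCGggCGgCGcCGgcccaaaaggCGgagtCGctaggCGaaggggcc
SEMA4C: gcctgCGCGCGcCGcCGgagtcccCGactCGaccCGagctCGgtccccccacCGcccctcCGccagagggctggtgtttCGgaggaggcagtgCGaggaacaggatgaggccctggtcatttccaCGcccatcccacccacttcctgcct
SEMA6C: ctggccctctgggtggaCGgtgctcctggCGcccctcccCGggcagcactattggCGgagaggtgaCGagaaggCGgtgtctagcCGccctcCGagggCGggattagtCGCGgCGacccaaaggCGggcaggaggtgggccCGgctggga

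All 3 of these stretches were GC-rich, with 17, 14 and 14 CpGs at 81.3%, 70.7% and 72.0% GC.

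Plexins are the semaphorin receptors and act on small GTPases through their own intracellular domain. PLXNA4, a receptor for class 3 and class 6 semaphorins, had 8 tags and 0.482 RPM (0.208 to 0.95) in DMSO and 18 tags and 0.985 RPM (0.584 to 1.56) in MAK683. The log2 ratio of 1.03 (-0.24 to 2.44) was the highest of all guidance genes, at percentile 99.0. The MAK683 peak was 3525 bp long against 420 bp in DMSO, and its summit lay 669 bp downstream of the TSS, in an intron, against 1085 bp upstream. PLXNA1 had 36 and 24 tags (-0.72, -1.53 to 0.06). Of the 7 plexins 3 were higher and 4 lower, with a median of -0.14.

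**Figure D3:**
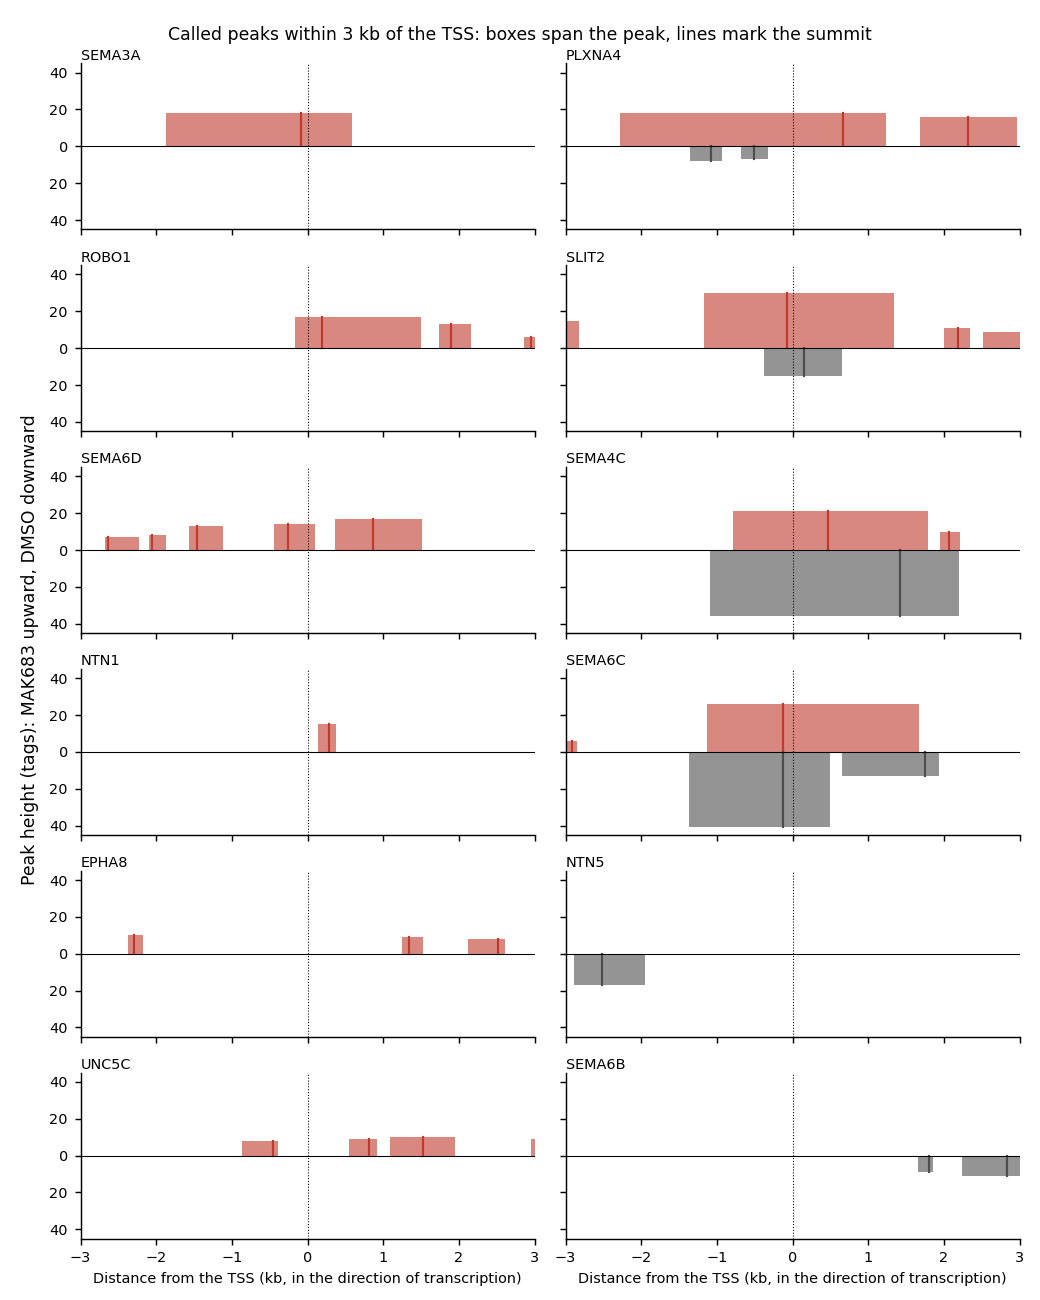
Called peaks within 3 kb of the TSS of 12 guidance genes, with peak height in tags upward for MAK683 (red) and downward for DMSO (grey) against distance from the TSS in kb. Boxes span the peak and lines mark the summit. The 6 genes on the left have boxes for MAK683 only, SEMA4C and SEMA6C have taller DMSO boxes, and NTN5 and SEMA6B have boxes for DMSO only.

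Promoter peaks of the guidance genes also covered more DNA in MAK683. The median length covered by called peaks within 3 kb of the TSS was 2125 bp in DMSO and 2959 bp in MAK683, whereas over all protein-coding genes it was 1572 and 1380 bp. The covered length was larger in MAK683 at 38 of the 63 guidance genes, 60.3% against 26.1% of all genes, and smaller at 24.

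The ratios varied with the starting height and with base composition, 2 features that also differ between the guidance genes and other genes. At a DMSO height of 6 to 15 tags the median log2 ratio was 0.57 over 10 guidance genes and 0.10 over all genes. From 16 to 25 tags it was 0.10 over 20 genes against -0.36, and from 26 tags on it was -0.44 over 24 genes against -0.54. A gene with a low DMSO peak had a ratio only if its MAK683 peak was also high enough to be called. By GC content of the 1001 bp around the TSS, the medians were 0.30 over 10 guidance genes under 60%, -0.14 over 25 genes from 60 to 70%, and -0.27 over 19 genes at 70% or more. All genes had -0.52, -0.47 and -0.40 in the same ranges. Within each range of height and of GC the guidance genes had the higher median. In the lowest range of height the shares of higher genes were close, 6 of 10 guidance genes against 56.1% of all genes. From 16 to 25 tags they were 10 of 20 against 20.2%, and from 26 tags on 6 of 24 against 2.98%. The ranges are wide and the last has no upper end, so starting heights may still differ within a range. The median DMSO height was 1.39 RPM for the guidance genes and 1.93 for all genes. The part that height and base composition have in this difference and in the values of single genes was not tested. NTN5 and SEMA6B, the DMSO-only genes, both lie on chromosome 19, where 3.92% of protein-coding genes had a DMSO-only and 2.43% a MAK683-only promoter peak.

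CpG islands are dense in CpG and cover most promoters of developmental genes. The median ratio of observed to expected CpG around the TSS was 0.767 for the guidance genes and 0.727 for all, and 76.2% and 66.5% reached 0.6. It was 0.728 for the 6 MAK683-only genes and 0.339 for NTN5 and SEMA6B. The GC box GGGCGG, searched on both strands in the 301 bp around the MAK683 summit, was found at 56.7% of 60 guidance genes and at 60.1% of all genes. The AP-1 motif TGANTCA, searched in the same way, was found at 3.33% and 3.96%. The guidance genes with a match were ROBO4, whose stretch above contains it, and EPHA1. The motifs do not overlap each other.

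**Figure D4:**
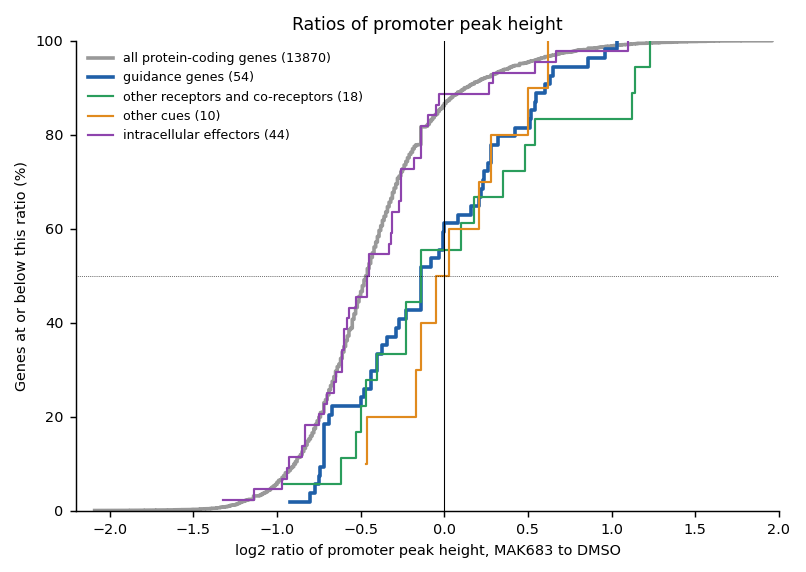
Cumulative share of genes (%) by log2 ratio of promoter peak height, MAK683 to DMSO, for all protein-coding genes, the guidance genes and 3 lists of other guidance pathway genes with a peak in both libraries, with numbers of genes in brackets. The curve of the guidance genes crosses 50% at -0.14, and the curves of intracellular effectors and of all genes both cross at -0.46.

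The rest of the pathway was described with 3 lists of genes outside these families. Of 22 other receptors and co-receptors, 18 had a DMSO and 19 a MAK683 peak, 81.8% and 86.4% against 74.0% and 80.1% of all genes. The median log2 ratio over 18 genes was -0.14, with 8 higher and 10 lower, so 44.4% were higher against 13.4% of all genes. NRP2, a neuropilin that binds class 3 semaphorins, had 15 tags in DMSO and 36 in MAK683 (1.12, 0.22 to 2.1). ALCAM, a cell adhesion molecule on growing axons, had 12 and 31 (1.23, 0.23 to 2.33), and EPHA10, an Eph protein whose symbol has more digits than the naming rule allows, had 7 and 17 (1.14). RYK, a Wnt receptor, had 32 and 18 tags (-0.97, -1.89 to -0.09), PTCH1 had 42 and 30 (-0.62) and PTPRS had 17 and 13 (-0.53). The counting intervals of NRP2 and ALCAM lie above 0 and that of RYK below it, states that 0.836% and 17.2% of all genes had. Of 15 other cues, 10 had a peak in both libraries and the median was -0.01. SHH, a morphogen that also guides commissural axons, had 13 and 22 tags (0.62), RELN 9 and 14 (0.50) and NTNG2 15 and 20 (0.28), whereas RTN4 (-0.47), DRAXIN (-0.46) and RGMB (-0.17) were lowest. HGF and MAG had a MAK683 peak only, of 17 and 12 tags, 13.3% of the cues against 7.92% of all genes. No cue had a DMSO peak only.

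The intracellular effectors resembled the typical gene. These 52 genes carry the signal to the cytoskeleton and are used in most cells. Over 44 with both peaks the median was -0.46, equal to that of all genes. Of these, 5 were higher and 39 lower, so 11.4% were higher against 13.4% of all genes. The counting interval lay above 0 at 1 of the 44 and below 0 at 6, states that 0.836% and 17.2% of all genes had. CDC42, which controls cell polarity, had 25 tags in DMSO and 11 in MAK683 (-1.32, -2.49 to -0.25), and CFL2, a cofilin that severs actin, had 40 and 20 (-1.14, -1.99 to -0.33). The kinase gene PAK6 had 16 and 9 (-0.97). The highest were DPYSL3 with 11 and 26 tags (1.10, 0.04 to 2.27), NCK2 with 12 and 21 (0.67) and DPYSL2 with 10 and 16 (0.54). DPYSL2 and DPYSL3 encode collapsin response mediators, which act downstream of SEMA3A, and a further member of that family, CRMP1, had a MAK683 peak only, of 19 tags. DPYSL4 and DPYSL5 had ratios of -0.14 and -0.03. Among the effectors ABLIM1, with 8 tags, was the other gene with a MAK683 peak only. SRGAP2 and EVL had a DMSO peak only, of 12 and 7 tags. Each state held 3.85% of the list, against 7.92% of all genes with a MAK683 peak only and 1.86% with a DMSO peak only.

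Many guidance genes are long, and peaks inside them were counted beyond 3 kb from the TSS. Inside the 25 guidance genes of at least 150 kb, 42 peaks were called in DMSO and 557 in MAK683, a ratio of 13.3. All 2137 protein-coding genes of that length had 19133 and 34321 peaks, a ratio of 1.79. MAK683 had more peaks in 23 of the 25 genes, 92.0% against 56.9% of all such genes, and in none did it have fewer. In SEMA6D and UNC5D neither library had a peak there. A gain of at least 10 peaks was seen in 9 of the 25 genes, 36.0% against 31.9% of all such genes. The 56.9% includes genes with many DMSO peaks. Among long genes with under 2 DMSO peaks per 100 kb, 91.3% of 23 guidance genes had a MAK683 peak inside, against 88.3% of all 1328. Guidance genes under 50 kb had 115 and 100 peaks, a ratio of 0.870 against 0.879 over all genes of that length. Those of 50 to 150 kb had 77 and 109, a ratio of 1.42 against 0.987.

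SLIT3 and PLXNA2 had the most peaks inside, and they are named because their numbers stood out. SLIT3 had 6 peaks in DMSO and 141 in MAK683, and PLXNA2 had 4 and 118. Their gains ranked 2 and 7 among the 2137 long genes. Without both genes the counts were 32 and 298, a ratio of 9.31. In PLXNA2 the MAK683 peaks covered 29.7% of the gene, against 0.772% in DMSO, and in SLIT3 9.93% against 0.518%. The MAK683 peaks lay along the whole length of both genes, in all 10 equal parts of it, and the promoter heights of both were nearly equal in the libraries (20 tags each for PLXNA2, 13 and 14 for SLIT3). PLXNA4 had 3 and 52 peaks inside, EFNA5 4 and 50, SLIT2 2 and 20, ROBO1 2 and 20, EPHB1 0 and 35, EPHA6 0 and 24 and UNC5C 0 and 14.

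**Figure D5:**
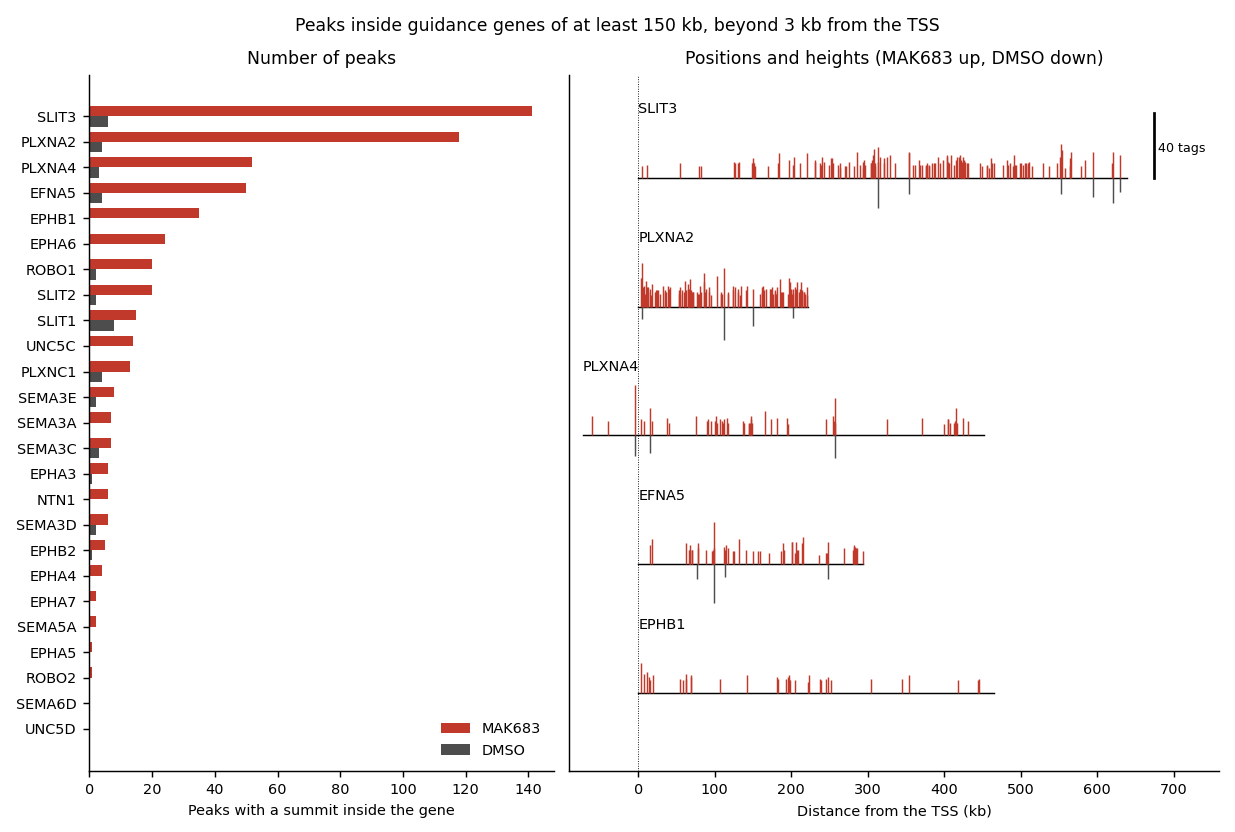
Left, number of peaks with a summit inside each of the 25 guidance genes of at least 150 kb, beyond 3 kb from the TSS, in DMSO (grey) and MAK683 (red). Right, positions of these peaks in the 5 genes with the most, as distance from the TSS in kb, with line length giving height in tags (scale bar 40 tags). SLIT3 and PLXNA2 carry 141 and 118 MAK683 peaks along their whole length.

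These peaks were low and the long guidance genes started from few. The 557 MAK683 peaks had a median of 9 tags, and 52.1% held fewer than 10. Among peaks with a −log10 q of 5 or more the counts were 25 and 186, a ratio of 7.44 against 1.10 over all long genes, and at 10 they were 8 and 41, a ratio of 5.12. Of the 25 genes, 23 had under 2 DMSO peaks per 100 kb, and they went from 0.270 to 4.76 peaks per 100 kb. The 1328 long protein-coding genes under the same limit started higher, at 0.542, and reached 4.11. Because the starting levels differ, the ratios of 17.6 and 7.58 are not on an equal footing. These densities are pooled over genes, SLIT3 and PLXNA2 included. The median MAK683 density per gene was 2.56 peaks per 100 kb over the 23 genes, against 2.72 over the 1328. For genes with no DMSO peak inside it was 1.21 over 12 guidance genes, against 1.77 over all 389 such genes. In the 500 kb on either side of the 25 genes the numbers were 504 and 927, a ratio of 1.84 against 1.42 for all long genes. These sums lean on a few genes with many DMSO peaks around them. The surroundings had fewer MAK683 peaks at SLIT1 (136 and 103), SLIT3 (110 and 80) and EPHB2 (52 and 44). UNC5D had none in either library, and all the other genes had more, PLXNA2 among them with 18 and 117. The gain was thus not confined to the genes themselves.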

How the data were processed

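The methods of the study state trimming of the paired 150 bp reads with Trim-galore and alignment by Bowtie2 to hg19. Per the file headers, peaks of each library were called separately with MACS 2.1.1.20160309 (the submitters' processing notes list 2.1.0 and 2.2.7.1). The headers give a shift of -100 bp and an extension to 200 bp for each tag, with no control and no local background, a q-value cutoff of 0.05 and 1 tag kept per position. The deposited pileup signal counts the extended tags at the summit in whole tags. The fold enrichment that the authors deposited is a ratio of pileup over a background level, and it served as an alternative to height. The −log10 q-value (deposited beside a −log10 p-value that was not needed) served as a filter on peaks. Both depend on depth.

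Genes came from GENCODE 44 lifted to GRCh37, with 1 TSS each, that of the Ensembl canonical transcript where marked. The tallest peak overlapping the 3 kb on either side of the TSS was divided by the tags after filtering and multiplied by 1000000. Heights carry exact 95% Clopper-Pearson intervals. Log2 ratios carry intervals from the exact binomial interval of the tags of both peaks, and order statistics gave the interval of a median. The intervals of heights and ratios describe counting error alone (the reads carry no molecular identifiers). The interval of a median describes the spread over genes and holds no spread between cultures. A gene with a peak in 1 library got no ratio. Python 3.11.15, numpy 2.4.6, pandas 2.3.3, scipy 1.17.1 and matplotlib 3.10.9 were used, and the interval and promoter code was tested on simulated data.

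The genes and lists were chosen with earlier results of these data known. Genes were named where the interval excluded 0, where a peak was in 1 library only, where the height was among the 3 tallest of a library, where the ratio was the highest or lowest of its family, and for ROBO1, for which the study lists qPCR primers. Of the other pathway lists the 3 highest and 3 lowest were named. Other genes, and the counts of peaks inside genes, were chosen after their values were seen.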

Additional observations from a re-analysis of the deposited data

How the results depend on the processing

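The numbers of guidance genes with a promoter peak, 56 in DMSO and 60 in MAK683, stayed within 1.5 times under the 1 kb window, the summit rule, all basic TSSs and both −log10 q minima, with ranges of 46 to 57 and 49 to 61. Their median log2 ratio was -0.14 in the main analysis and turned to 0.32 when centred on the median of all genes, as subtracting -0.46 must give. It stayed within its interval over genes otherwise, between -0.14 and 0.00, the latter without depth scaling. Restricted to the 40 genes with summits at most 500 bp apart, a setting added after seeing the data, it was -0.02.

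The number at least 2-fold higher was 1 (PLXNA4) and became 0 with a −log10 q of at least 5 or 10, 3 without depth scaling, 8 when centred and 5 with absent peaks set to the lowest called height. The number at least 2-fold lower was 0, and became 2 with the 1 kb window and 1 with absent peaks at that height. Of 164 values of single named genes under the alternatives, all lay within the interval of the main value. A gene that lost a peak under an alternative gave no value there. Among such genes, PLXNA4 and ROBO4 had no ratio with a −log10 q of at least 5 or 10. ROBO4 also had none with the 1 kb window or the summit rule. The intervals are wide, and a value within them can change sign, as ROBO3 did from 0.26 to -0.43 with all basic TSSs.

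The ratio of peaks inside genes of at least 150 kb was 13.3, and under settings added after seeing the data it was 7.44 and 5.12 with a −log10 q of at least 5 and 10, 9.31 without SLIT3 and PLXNA2 and 10.9 for genes of at least 100 kb. Where no cause is given, the cause was not tested. No paired analysis was possible because each group had 1 library. At 8 to 20 tags per peak, the depth cannot tell a 2-fold difference at a single promoter from counting error in most cases.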

Other observations

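The guidance relatives on chromosome X, which the rule left out, were all lower in MAK683. EFNB1 had 22 tags in DMSO and 17 in MAK683 (log2 ratio -0.51, -1.51 to 0.47), PLXNA3 had 15 and 12 (-0.46, -1.69 to 0.73) and PLXNB3 had 12 and 9 (-0.55, -1.98 to 0.82). Each ratio was close to the median of all autosomal genes, and each interval includes 0.

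Among annotated starts other than those used for the main comparison, SEMA4B had 33 tags in DMSO and 19 in MAK683 (log2 ratio -0.93, -1.83 to -0.08) at a start 16.4 kb upstream of its main TSS, where the heights were 26 and 33 tags (0.21). SEMA6A and SEMA5B had peaks in MAK683 only at further starts, of 19 and 12 tags. These were chosen after their values were seen.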
